A study of Mus musculus with 12 samples.

Results

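The semaphorins, their plexin receptors and the neuropilin co-receptors were examined as sites of estrogen receptor α (ERα) and progesterone receptor (PR) binding in the mouse mammary gland. The set held 31 genes of 21887 coding genes in the gene table: 20 semaphorin genes, 9 plexin genes and both neuropilin genes. It was chosen by gene family, with earlier results of these data known. A peak belonged to a gene when its summit, the highest point of the peak, lay within 50 kb of the gene's span on the mm10 genome.

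Semaphorins are ligands that steer growing axons, vessels and migrating cells. Class 3 members are secreted and mostly reach plexins through a neuropilin that binds the ligand, whereas classes 4 to 7 are held at the cell membrane and mostly bind plexins directly. Plexins act inside the cell on small GTPases and the cytoskeleton, and neuropilins also serve as co-receptors for vascular endothelial growth factors.

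Whole mammary glands were taken from mice with wild-type Esr1 (WT), the gene of ERα, or with the Y541S substitution in Esr1, which changes the part of ERα that binds hormone. All mice had reached 8 weeks of age and carried estradiol and progesterone implants for 4 days before harvest, so the controls were hormone-treated too. Chromatin immunoprecipitation followed by sequencing (ChIP-seq) was done for ERα and for PR, with 2 biological replicates for each receptor and genotype and 8 libraries in all. Mice with the D542G substitution were not analysed here. The sources used here do not say whether each mutant mouse carried 1 or both alleles with Y541S, which cells carried the substitution, or how many animals made up a replicate. The title of the series names luminal cells, whereas the labels name whole glands, which also hold basal cells, fat, vessels and immune cells. Regions with an ERα peak in all 4 ERα libraries lay at 5 of 6 loci marking hormone-sensing luminal cells (Foxa1 had none). They also lay at 2 of 2 luminal progenitor marker loci. Further counts were 3 of 4 basal, 3 of 3 adipocyte, 1 of 2 endothelial, 2 of 3 immune and 0 of 2 neural. Of all coding genes, 72.4% had such a region. For PR, in the same order, the luminal counts were 6 of 6 and 2 of 2. The others were 4 of 4, 3 of 3, 2 of 2, 3 of 3 and 1 of 2. Of all coding genes, 78.2% had such a PR region. A peak does not show in which cells the receptor was bound, and fewer cells with binding and less binding per cell cannot be told apart in whole tissue.

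The promoters below show the gene starts of the family where receptor peaks were most often found, and that of Plxnd1, where ERα peaks of the Y541S libraries, both of them, overlapped the printed bases and WT ones did not. Over the same span of bases, this ERα pattern held at a Sema6b start (Y541S fold enrichments 3.18 and 2.83) and the Sema3c start (4.44 and 3.27). Just outside that span at Sema3c, both WT ERα libraries had a peak. Their summits were at -0.427 kb (3.06, replicate 1) and 0.23 kb (3.18, replicate 2) from the start. The Sema6b and Sema3c starts are not printed, nor are the Plxnb2 and Sema4b starts that were overlapped in 7 libraries. Sema4d and Sema6c are shown because a start of each was overlapped by a peak in all 8 libraries. Each sequence runs 5′ to 3′ along the gene from 250 bases before to 50 bases after a start (RefSeq, GRCm38.p6). Capitals mark the estrogen response element arm GGTCA or the progesterone response element arm TGTTCT, on either strand. They lie at chr13:51756634-51756933 on the minus strand (Sema4d, a start inside the gene's span), chr3:95160170-95160469 on the plus strand (Sema6c) and chr6:115994956-115995255 on the minus strand (Plxnd1).
Sema4d: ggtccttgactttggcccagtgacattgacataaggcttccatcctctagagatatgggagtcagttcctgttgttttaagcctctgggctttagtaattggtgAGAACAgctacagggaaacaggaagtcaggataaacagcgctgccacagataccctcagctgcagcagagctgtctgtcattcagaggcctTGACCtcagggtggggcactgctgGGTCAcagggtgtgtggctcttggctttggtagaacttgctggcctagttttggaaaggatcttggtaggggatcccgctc
Sema6c: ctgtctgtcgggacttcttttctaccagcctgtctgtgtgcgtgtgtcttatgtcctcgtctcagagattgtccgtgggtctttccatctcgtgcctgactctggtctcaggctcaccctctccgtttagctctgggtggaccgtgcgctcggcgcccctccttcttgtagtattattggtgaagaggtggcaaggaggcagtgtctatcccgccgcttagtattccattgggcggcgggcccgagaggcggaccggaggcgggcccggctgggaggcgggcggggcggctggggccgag
Plxnd1: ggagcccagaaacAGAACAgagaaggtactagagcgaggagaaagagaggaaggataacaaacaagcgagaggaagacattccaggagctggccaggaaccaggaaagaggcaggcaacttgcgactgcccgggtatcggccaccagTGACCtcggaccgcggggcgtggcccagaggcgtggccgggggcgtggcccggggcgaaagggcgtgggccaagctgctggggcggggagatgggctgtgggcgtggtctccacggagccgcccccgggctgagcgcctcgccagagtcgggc

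The Sema4d promoter held 1 match to TGTTCT and 2 to GGTCA, the Plxnd1 promoter held 1 of each, and the Sema6c promoter held none. At the Sema4d start the deposited fold enrichments of the ERα peaks were 3.16 and 3.81 in WT and 7.14 and 5.21 in Y541S, and those of the PR peaks were 2.81 and 5.81 in WT and 8.36 and 5.87 in Y541S (replicates 1 and 2 in this order throughout). Sema6c peaks had ERα fold enrichments of 3.07 and 3.09 (WT) and 3.71 and 4.78 (Y541S), and PR fold enrichments of 3.12, 5.88, 3.51 and 6.70. Over the printed Plxnd1 bases no ERα peak was listed in WT, the Y541S values were 5.59 and 5.32, and PR peaks were listed in 3 of 4 libraries, with 3.44 in WT replicate 2 and 5.29 and 3.14 in Y541S. Close by, WT ERα replicate 1 had peaks at 0.57 (3.26), 1.215 (2.85) and -1.362 kb (2.23) from the Plxnd1 start. Y541S ERα replicate 1 had another at 0.469 kb (2.72). These are the authors' values of single peaks. They were not scaled between libraries and rank peaks within a list only.

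Promoter entries were found for 26 of the 31 genes, with 37 starts; Plxna1, Plxna4, Sema3b, Sema3f and Sema6a had none. Of the 37 member promoters, 2 (5.41%) were overlapped by a peak in all 8 libraries, against 15.7% of 32851 promoters in the table, and 13 (35.1%) by none, against 51.2%. Member promoters were rich in G and C, with a median of 63.7% against 52.7% over all promoters, and held a median of 15 CpG pairs against 7. GGTCA was in 14 of the 37 (37.8%; 40.5% of all) and TGTTCT in 8 (21.6%; 19.0%). The AP-1 motif TGANTCA was in 3 (8.11%; 7.81%). The whole estrogen response element GGTCANNNTGACC, which contains the arm GGTCA, was in none (0.0700% of all), as was the whole progesterone response element GNACANNNTGTNC (0.475%). Both strands were searched, and a match is a description of these letters only.

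Every member had at least 1 peak of each receptor. The peak lists held 64488 to 113695 peaks per library, and a recovered background coverage, which rises with depth, ran from 0.927 to 2.68. ERα lists were longer in Y541S (106926 and 105612 peaks) than in WT (72566 and 64488), and so were PR lists (113695 and 101382 against 82982 and 93491). Counts of peaks at members move with these list lengths, and depth and binding cannot be told apart in them. The series gives replicates as biological, so the p-values below measure the spread between these libraries.

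ERα peaks at member genes numbered 373 and 324 in WT and 477 and 448 in Y541S, with means of 349 ± 34.6 and 463 ± 20.5 (SD, n = 2). Both Y541S libraries were above both WT libraries, by 1.33-fold (log2 0.41, SE 0.11), and by 1.28-fold and 1.38-fold within replicate numbers 1 and 2. PR peaks numbered 345 and 395 in WT and 468 and 402 in Y541S, with means of 370 ± 35.4 and 435 ± 46.7 (SD, n = 2). The PR groups did not overlap but nearly met, at 1.17-fold (log2 0.23, SE 0.15), with 1.36-fold and 1.02-fold within replicates. Both differences had a two-sided exact permutation p of 0.333, the smallest that 2 libraries against 2 can give. The test of whether the ERα and PR differences themselves differed gave a log2 difference of 0.18 (exact permutation p = 0.556). Among the 20000 strongest peaks of each list the log2 ratios were 0.052 for ERα and -0.026 for PR.

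As a share of all peaks of a library, members took 0.514% and 0.502% of ERα peaks in WT and 0.446% and 0.424% in Y541S. The groups did not overlap, with means of 0.508% ± 0.0082 and 0.435% ± 0.0155 (SD, n = 2) and a Y541S minus WT difference of -0.0731 percentage points (two-sided exact permutation p = 0.333). The number of ERα peaks at members was thus higher in Y541S while their share was lower. PR shares were 0.416% and 0.423% in WT and 0.412% and 0.397% in Y541S, with means of 0.419% ± 0.00477 and 0.404% ± 0.0107 (SD, n = 2). These groups did not overlap either, and the difference was -0.0151 points (exact permutation p = 0.333). The ERα difference minus the PR difference was -0.0580 points (exact permutation p = 0.333). Every ERα library gave members a larger share than every PR library, and PR minus ERα over both genotypes was -0.0601 points (two-sided exact permutation p = 0.0556, the smallest of 36 arrangements). That p treats the ERα and PR libraries as independent, and the labels do not say whether they came from the same chromatin. With only peaks of a −log10 p of at least 5, the Y541S minus WT differences in share turned to 0.020 points for ERα and 0.011 points for PR.

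**Figure D1:**
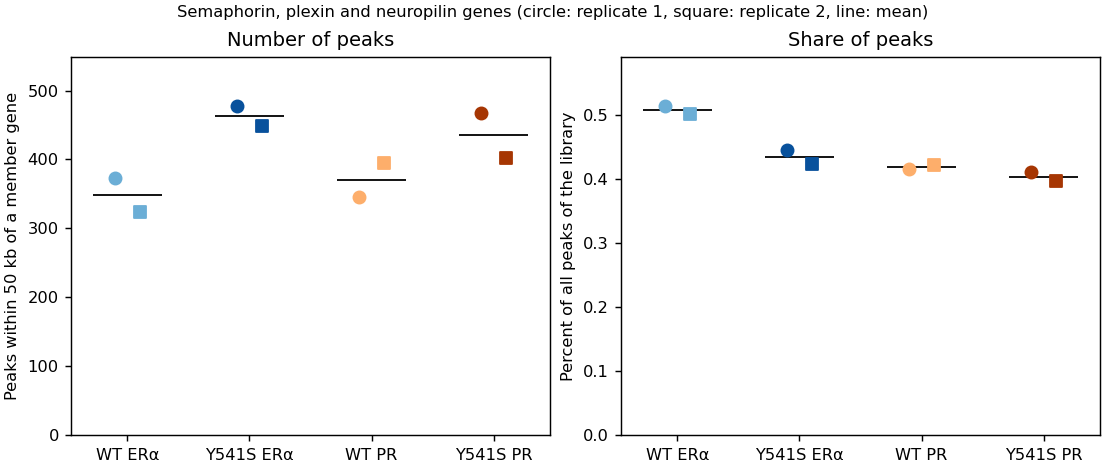
Number of peaks within 50 kb of a semaphorin, plexin or neuropilin gene (left) and the same as a percent of all peaks of the library (right), 1 point per library with the group mean as a line. The Y541S ERα libraries had 477 and 448 such peaks against 373 and 324 in WT, but smaller shares (0.446% and 0.424% against 0.514% and 0.502%).

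Peaks at members were of middling strength within their lists. Their median rank, counted from the strongest peak at 0% to the weakest at 100%, was 53.7% and 50.7% in the WT ERα lists and 46.6% and 42.6% in the Y541S ERα lists. In the PR lists it was 53.8% and 55.9% (WT) and 54.5% and 50.2% (Y541S). The strongest peak at a member had a fold enrichment of 12.2 to 19.5, depending on the library. Between 39.1% and 48.0% of member peaks lay inside the span of a member. Over all coding genes, 63.9% to 65.3% of peaks within 50 kb of any gene lay inside the span of any gene. Between 3.19% and 6.70% lay within 1 kb of a member start, with the 5 genes without a promoter entry counted as having none, and 11.5% to 18.2% of all peaks lay within 1 kb of any gene's start. The member shares count members only, although their windows reach other genes. The ERα minus PR difference in that share was 0.81 points (two-sided exact permutation p = 0.389).

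Peaks of the 4 libraries of a receptor that overlapped by at least 1 bp were merged into regions. For ERα, 101 regions at members had a peak in all 4 libraries, 34 had one in both Y541S libraries and in no WT library (Y541S-only), and 6 had one in both WT libraries and in no Y541S library (WT-only). For PR the numbers were 139, 57 and 11. Y541S-only regions were 17.3% of the ERα regions found in both Y541S libraries at members, against 23.2% in the whole series, and 20.5% of the PR regions, against 18.9%. WT-only regions were 4.92% of the ERα regions found in both WT libraries, against 5.60% in the series, and 6.83% of the PR regions, against 2.51%. Absence from a list means only that no peak passed the authors' threshold there.

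Counted by gene, 28 of 31 members had an ERα region in all 4 libraries, where 72.4% of all coding genes did, and 30 had such a PR region, where 78.2% did. Y541S-only ERα regions lay at 22 members (49.4% of all coding genes) and Y541S-only PR regions at 24 (55.2%). Coding genes whose length was within 20% of a member's, 12377 genes in all, come closer: averaged over members, 58.8% of them had a Y541S-only ERα region and 66.3% a Y541S-only PR region. Counted likewise, 78.8% of them had an ERα region in all 4 libraries and 86.0% such a PR region. WT-only ERα regions lay at 6 members (11.5% of all; 14.7% at similar length). WT-only PR regions lay at 11 members, or 35.5%, where 9.64% of all coding genes and 12.2% of those of similar length had one. Each of the 11 had exactly 1, and with a −log10 p of at least 5 the number was 2.

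Both Y541S libraries had more ERα peaks than both WT libraries at 15 members, where 40.8% of all coding genes and on average 52.9% of similar-length genes did. The reverse held at 1 member, Sema6c (0.95% of all). For PR, 10 members had more peaks in both Y541S libraries (24.5% of all; 30.1% at similar length) and 0 in both WT libraries (3.15%). The PR count of 10 became 19 with peaks of a −log10 p of at least 5. Shares over coding genes were not counted for those stricter lists, so the 19 has no background here. The median member log2 ratio of Y541S to WT was 0.32 for ERα (30 members with a ratio), against 0.47 over 18599 coding genes, and 0.26 for PR, against 0.22 over 18774. At no member did every PR library exceed every ERα library (4.29% of all coding genes). At 1 member, Sema6d, every ERα library exceeded every PR library (0.809%).

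**Figure D2:**
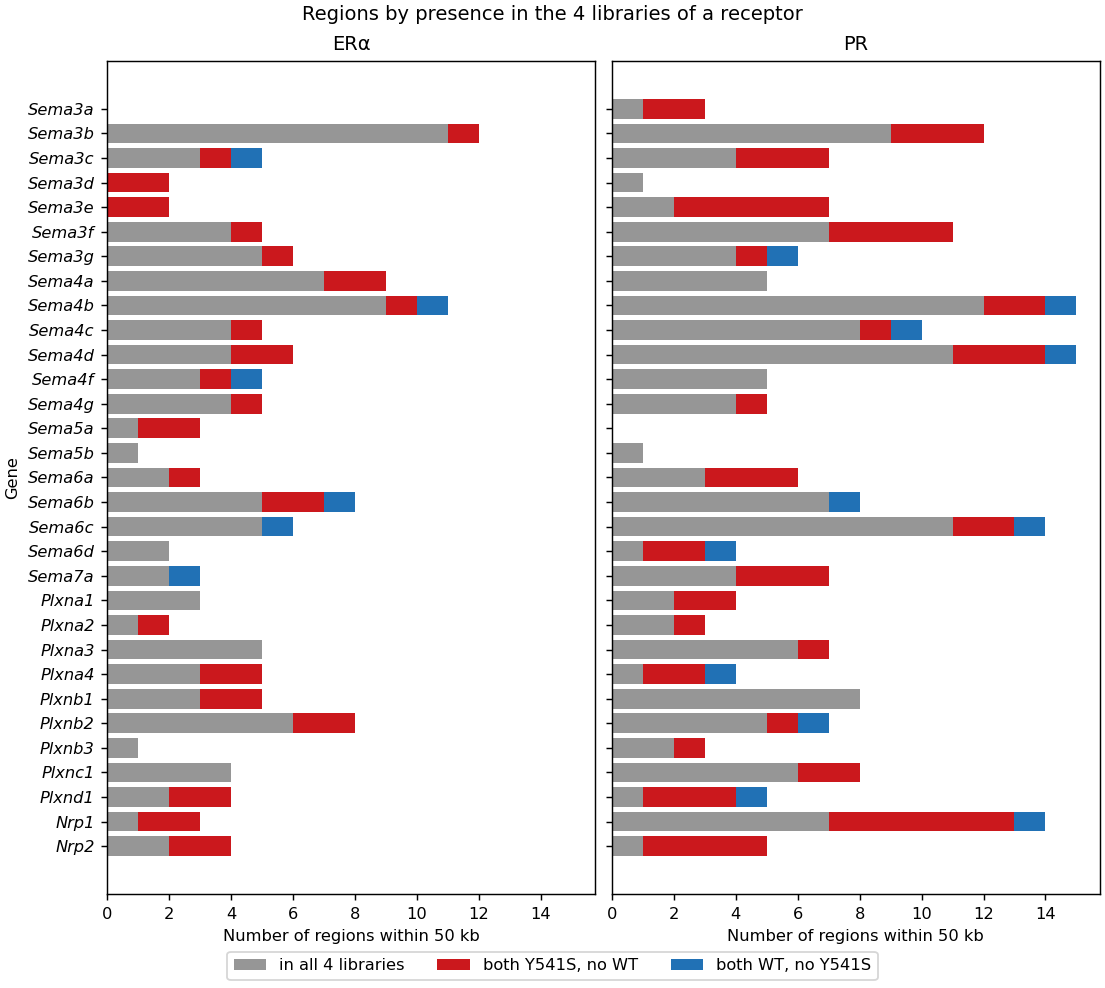
Regions within 50 kb of each gene that had a peak in all 4 libraries of a receptor (grey), in both Y541S and no WT library (red), or in both WT and no Y541S library (blue), for ERα (left) and PR (right). Sema3b led for ERα with 11 regions in all 4 libraries and Sema4b for PR with 12; Nrp1 had the most Y541S-only PR regions, 6.

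For ERα, the secreted class 3 ligands ranged from the densest gene of the family to the sparsest. Sema3b, studied as a tumour suppressor, had 17 and 15 ERα peaks in WT and 20 and 17 in Y541S, and 18 and 21 PR peaks in WT and 19 and 17 in Y541S. These groups overlapped for both receptors. Its density of 15.5 ERα peaks per 100 kb (mean of 4 libraries) was above 99.1% of genes of similar length, with 11 other coding genes in its window. It held 11 ERα and 9 PR regions present in all 4 libraries, 8 regions with a peak in all 8 libraries, and 1 ERα and 3 PR Y541S-only regions. Its best-ranked constant ERα region (chr9:107635149-107636029), 26.4 kb from the gene with Gnai2 nearest among other coding genes, had fold enrichments of 9.66 and 9.53 (WT) and 10.2 and 6.40 (Y541S) and a PR peak in every library. A constant ERα region 0.52 kb from Sema3b, at chr9:107596948-107597621 inside Lsmem2, had 7.18 and 7.29 in WT and 5.98 and 8.71 in Y541S and a PR peak in 1 library.

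Sema3f, a repulsive ligand that signals through Nrp2, lies 72.3 kb from Sema3b, so that some regions count for both. It had 14 and 9 ERα peaks in WT and 12 and 13 in Y541S, and 17 and 12 PR peaks in WT and 19 and 21 in Y541S. The ERα groups overlapped and the PR groups did not, with 4 Y541S-only PR regions against 1 for ERα. Sema3g, a ligand of vessels, had 12 and 13 ERα peaks in WT and 16 and 14 in Y541S, without overlap, and its PR counts overlapped (13 and 12 against 18 and 12). The constant ERα region 10.1 kb upstream of its start, at chr14:31207139-31207973, was among the strongest at any member, with 13.3 and 14.3 in WT and 16.9 and 15.1 in Y541S, and all 4 PR libraries had a peak there. A WT-only PR region lay 17.0 kb upstream at chr14:31200733-31201062 inside Nisch, with 3.01 and 3.14.

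Sema3c, a ligand that attracts as well as repels cells, had 12 and 7 ERα peaks in WT and 15 and 19 in Y541S, and 11 and 13 PR peaks in WT and 17 and 13 in Y541S. ERα groups did not overlap, whereas the PR groups touched at 13. Its constant PR regions were strong: one inside the gene at chr5:17624684-17625434, 50.3 kb past the start, had fold enrichments of 10.1 and 7.73 (WT) and 19.5 and 18.5 (Y541S), and one 4.89 kb past the start, at chr5:17579470-17579977, had 10.2 and 9.52 against 16.7 and 12.3. That second region also had an ERα peak in all 4 libraries (4.81, 2.80, 4.86 and 3.97), and the first had one in 1. A Y541S-only PR region inside the gene, at chr5:17695343-17695892, had 6.50 and 6.54 and no ERα peak. A WT-only ERα region was listed 17.8 kb upstream, at chr5:17556875-17557226 (2.95 and 4.32), with a PR peak in 3 libraries. It was not kept with a −log10 p of at least 5. Close to it, at -18.6 kb from the start, both Y541S ERα libraries had a stronger peak (6.08 and 7.36). WT ERα replicate 1 had a peak there too (3.54). Both constant PR regions were singled out after their values were seen, as were the genes of the next paragraph other than Sema3e.

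Sema3a, Sema3d and Sema3e are long genes with few peaks. Sema3a, which repels axons through Nrp1 and A-type plexins, had 5 and 2 ERα peaks in WT and 10 and 13 in Y541S, and 3 and 7 PR peaks against 11 and 9. Sema3d, another neuropilin ligand, had 0 and 2 ERα peaks in WT and 8 and 7 in Y541S, and 2 and 6 PR peaks against 9 and 2. Sema3e, which binds plexin D1 without a neuropilin and patterns vessels, had no ERα peak in either WT library and 4 and 7 in Y541S. It had 2 and 4 PR peaks in WT and 15 and 9 in Y541S. None of the 3 had an ERα region in all 4 libraries, and their groups did not overlap except in PR at Sema3d. The ERα differences of 8 (Sema3a), 6.5 (Sema3d) and 5.5 (Sema3e) peaks shrank under stricter lists. With a −log10 p of at least 5 they were 1, 0 and 2, and among the 20000 strongest peaks 0.5, 0 and 1. PR differences of 5 (Sema3a) and 9 (Sema3e) peaks were 4.5 and 6 with that p, and 0.5 and 1.5 among the strongest. At Sema3e, a Y541S-only ERα region 32.2 kb upstream (chr5:13992926-13993234) had fold enrichments of 4.87 and 5.16 and a PR peak in all 4 libraries, with PR values there of 3.54 and 5.19 (WT) and 9.70 and 9.03 (Y541S). Its 5 Y541S-only PR regions included one inside the gene, at chr5:14217508-14217939, with 10.2 and 5.97 and no ERα peak, which led the Y541S-only PR regions of the family. The ERα density of Sema3e, 0.83 peaks per 100 kb, was above 13.3% of similar-length genes and its PR density of 2.26 above 29.0%.

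The class 4 ligands are membrane proteins, with Sema4d known as the ligand of plexin B1 and Sema4c as a ligand of plexin B2. The medians over the 6 genes were 11.5 ERα and 13.5 PR peaks per 100 kb, against 8.72 and 7.82 over all 31 members, some of them much longer. Their ERα densities were above 72.2% (Sema4f) to 99.3% (Sema4b) of similar-length genes. For PR the range was 55.9% (Sema4f) to 99.3% (Sema4c). Each window held other coding genes, and some short genes of other classes, such as Sema3b and Sema6c, were as dense. Sema4b had 22 and 18 ERα peaks in WT and 21 and 18 in Y541S, and 19 and 21 PR peaks against 20 and 18, so that both receptors overlapped between genotypes. It carried 9 constant ERα and 12 constant PR regions, and its ERα density was above 99.3% of similar-length genes. Its best-ranked constant PR region lay 48.0 kb from the gene, inside Vps33b at chr7:80274299-80274969, with 11.3 and 14.8 in WT and 17.2 and 13.5 in Y541S. A WT-only PR region 11.1 kb upstream at chr7:80175609-80175853 had 3.36 and 4.36 and no ERα peak.

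Sema4d had 17 and 12 ERα peaks in WT and 20 and 25 in Y541S, and 24 and 24 PR peaks in WT and 31 and 29 in Y541S, the highest mean PR counts of the family in both genotypes. Neither receptor's groups overlapped. It held 4 constant ERα regions against 11 constant PR regions, and 2 and 3 that were Y541S-only. One Y541S-only ERα region at chr13:51639034-51639237, 46.4 kb past the gene and 6.08 kb from Cks2, had 4.87 and 4.27 and no PR peak. Its PR count turned the other way among the 20000 strongest peaks of each list, by -4.5 peaks. Sema4c had 12 and 14 ERα peaks in WT and 20 and 14 in Y541S, and 17 and 20 PR peaks against 22 and 20, with 4 constant ERα and 8 constant PR regions. The Sema4c groups met at a shared value for each receptor. Sema4a, which acts on immune cells, had 16 and 15 ERα peaks in WT and 19 and 17 in Y541S, and 15 and 17 PR peaks against 26 and 18. Sema4a groups did not overlap for either receptor, its 7 constant ERα regions exceeded its 5 constant PR regions, and it had 2 Y541S-only ERα regions and 0 for PR.

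Sema4f and Sema4g are less studied members. Sema4f had 10 and 11 ERα peaks in WT and 13 and 11 in Y541S, meeting at 11, and Sema4g had 11 and 7 against 13 and 13, without overlap. PR peaks numbered 7 and 9 in WT and 13 and 11 in Y541S at Sema4f, and 6 and 11 against 14 and 12 at Sema4g, so PR groups did not overlap at either gene. A constant ERα region 5.98 kb past Sema4g, at chr19:45009010-45009548 inside Twnk, was the best-ranked constant ERα region of the family, with 14.1 and 13.1 in WT and 17.9 and 11.3 in Y541S, and PR peaks in 3 libraries. A constant PR region 39.6 kb past Sema4f at chr6:82872030-82872687 had 9.25 and 16.3 in WT and 15.3 and 16.5 in Y541S, with ERα peaks in 3 libraries.

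Class 5 and class 6 members differed among themselves. Sema5a, a ligand with thrombospondin repeats, had 7 and 13 ERα peaks in WT and 23 and 20 in Y541S, and 4 and 8 PR peaks against 7 and 10. The ERα groups did not overlap, but the difference of 11.5 peaks was 3 with a −log10 p of at least 5 and -0.5 among the 20000 strongest peaks. At Sema5a 1 ERα region was in all 4 libraries and 2 were Y541S-only, and Sema5a alone had no constant PR region. Sema5b had 11 and 3 against 11 and 7 ERα peaks and 9 and 3 against 4 and 5 PR peaks, all overlapping. Sema6d, a ligand of plexin A1, had 17 and 18 ERα peaks in WT and 30 and 26 in Y541S, but 12 and 12 PR peaks in WT and 10 and 13 in Y541S. Its ERα groups did not overlap, yet 2 ERα regions had a peak in both WT libraries, 5 in both Y541S libraries and none was Y541S-only. Among peaks of a −log10 p of at least 5 the Sema6d difference was -0.5 peaks. Sema6a, a ligand of plexins A2 and A4, had 6 and 9 ERα peaks against 18 and 14 and 9 and 14 PR peaks against 18 and 13. Sema5a, Sema5b, Sema6d and Sema6a were described after their values were seen.

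Sema6c was the single member with fewer ERα peaks in both Y541S libraries: 15 and 22 in WT and 12 and 12 in Y541S. Its PR counts were 19 and 17 against 18 and 15. With a −log10 p of at least 5 the ERα difference turned to 1 more peak in Y541S. Its ERα regions were 5 in all 4 libraries, 1 WT-only and 0 Y541S-only. PR regions at Sema6c were 11 constant, 2 Y541S-only and 1 WT-only. The Y541S-only PR region at chr3:95128960-95129398, 31.3 kb upstream and inside Tmod4, had 5.77 and 4.42 and no ERα peak, and the WT-only PR region at chr3:95177500-95178123, 3.74 kb past the gene, had 3.52 and 4.50. Sema6b had 20 and 11 ERα peaks in WT and 20 and 17 in Y541S, and 11 and 14 PR peaks against 15 and 11, all overlapping. Its ERα density of 14.5 peaks per 100 kb was above 98.1% of similar-length genes and its PR density of 10.9 above 75.9%. The WT-only ERα region at chr17:56159685-56160137, 19.5 kb upstream of Sema6b, had 3.45 and 3.34 and no PR peak. Sema7a, which is anchored in the membrane by a lipid and binds integrins and plexin C1, had 11 and 10 ERα peaks against 10 and 12 and 9 and 10 PR peaks against 14 and 13, overlapping for ERα and apart for PR. It had a WT-only ERα region inside the gene (chr9:57947591-57947832; 3.14 and 2.95) where all 4 PR libraries had a peak, and no Y541S-only ERα region but 3 for PR.

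**Figure D3:**
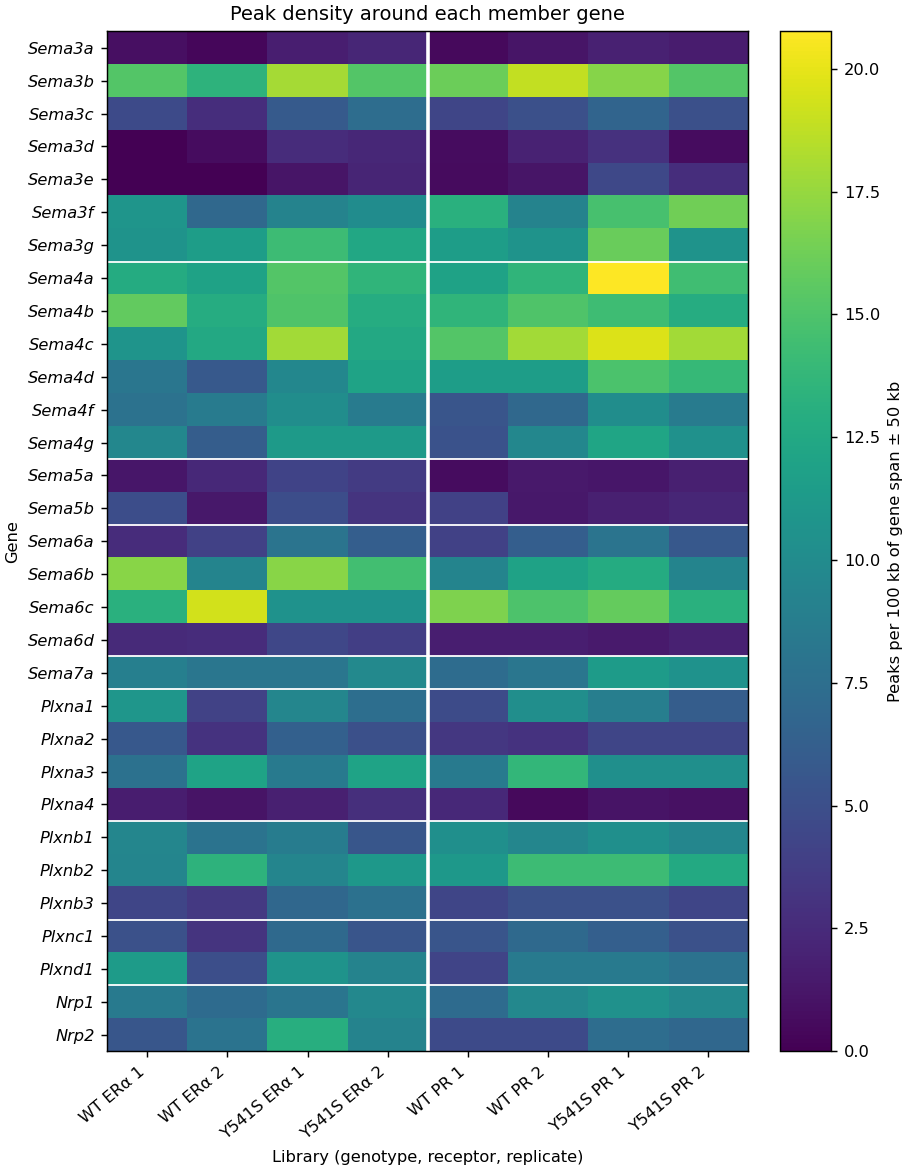
Peaks per 100 kb of gene span and 50 kb on each side, for every member (rows, by class) in every library (columns, ERα left and PR right of the white line). Short genes such as Sema3b, Sema4c and Sema4a were bright in all libraries, while Sema3a, Sema3d, Sema3e and Plxna4 were dark, and Sema3e had no ERα peak in WT.

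Among the A-type plexins, the receptors that class 3 ligands share with neuropilins, genotypes overlapped in most counts. Plxna3 had 9 and 14 ERα peaks in WT and 10 and 14 in Y541S and 10 and 16 PR peaks against 12 and 12, with 5 constant ERα and 6 constant PR regions. Plxna1 had 16 and 6 ERα peaks against 14 and 11 and 7 and 15 PR peaks against 13 and 9. Plxna2 had 17 and 9 ERα peaks against 19 and 15, and its PR counts of 10 and 9 against 13 and 13 did not overlap. Plxna4, at 444 kb one of the longest members, had 9 and 6 ERα peaks against 10 and 15, which did not overlap, and 13 and 3 PR peaks against 6 and 5.

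The B-type plexins are receptors of class 4 ligands. Plxnb2 had 12 and 17 ERα peaks in WT and 12 and 14 in Y541S, and 14 and 18 PR peaks against 18 and 16, all overlapping. It had 6 constant and 2 Y541S-only ERα regions, and its PR density of 13.0 peaks per 100 kb was above 91.6% of similar-length genes. Plxnb1 had 12 and 10 ERα peaks in WT and 11 and 7 in Y541S, and 13 and 12 PR peaks against 13 and 12. Its constant PR regions numbered 8, and the one inside the gene at chr9:109119441-109120157 was the best-ranked PR region of the family, with fold enrichments of 12.1 and 18.8 (WT) and 18.6 and 17.9 (Y541S) and ERα peaks in 2 libraries. A Y541S-only ERα region 40.5 kb upstream, inside Shisa5 at chr9:109054757-109055037, had 3.32 and 2.97 and a PR peak in all 4 libraries. Plxnb3 had 5 and 4 ERα peaks against 8 and 9, without overlap, and 5 and 6 PR peaks against 6 and 5, and its densities of 5.61 ERα and 4.74 PR peaks per 100 kb were above 36.2% and 27.7% of similar-length genes. Plxnc1, the receptor of Sema7a, had 13 and 8 ERα peaks against 18 and 14, also without overlap, and 14 and 18 PR peaks against 16 and 13.

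Plxnd1 (chr6:115954811-115995339), the receptor of Sema3e and a regulator of vessel growth, had 16 and 7 ERα peaks in WT and 15 and 13 in Y541S, and 6 and 12 PR peaks against 12 and 11. Neither receptor separated the genotypes by number. By region, 2 ERα regions were in all 4 libraries and 2 were Y541S-only, and PR had 1 constant, 3 Y541S-only and 1 WT-only. The Y541S-only ERα region at chr6:115995017-115995373 had its summit 0.19 kb upstream of the start whose promoter is printed above. It ranked best of the 34 Y541S-only ERα regions at members, 4.99% and 5.96% down the 2 Y541S lists, with recovered coverages of 34 and 24 reads where 5.26 and 3.70 were expected. Of the 34, 3 lay within 1 kb of a member start. The best-ranked constant PR region at Plxnd1 lay 37.5 kb upstream, inside Tmcc1 at chr6:116032156-116032769, with 10.7 and 12.1 in WT and 16.7 and 13.6 in Y541S and an ERα peak in 1 library.

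Nrp1 (chr8:128358591-128505476), the co-receptor for Sema3a and for vascular endothelial growth factor, had 21 and 18 ERα peaks in WT and 20 and 24 in Y541S, and 18 and 24 PR peaks against 26 and 24. Its groups overlapped for ERα and touched at 24 for PR. PR regions were 7 constant, 6 Y541S-only and 1 WT-only, against 1, 2 and 0 for ERα, although its densities of 8.40 ERα and 9.32 PR peaks per 100 kb were similar. The constant PR region 1.28 kb past its start, at chr8:128360089-128360589, had fold enrichments of 5.55 and 7.43 (WT) and 12.9 and 7.46 (Y541S) and no ERα peak. All 6 Y541S-only PR regions lay inside the gene, with 5 of them free of any ERα peak, and the best ranked (chr8:128447346-128447721) had 5.22 and 6.54. These Nrp1 regions were singled out after their values were seen.

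Nrp2 (chr1:62703317-62818692), the co-receptor of Sema3f and of vascular endothelial growth factor C in lymphatic vessels, had 12 and 17 ERα peaks in WT and 28 and 20 in Y541S. PR peaks there numbered 10 and 10 in WT and 16 and 15 in Y541S. Groups did not overlap for either receptor. By region, 2 were constant and 2 Y541S-only for ERα, and 1 was constant and 4 Y541S-only for PR. Y541S-only PR binding at chr1:62796266-62796616, 93.1 kb into the gene, had 7.26 and 5.68 and no ERα peak. The ERα density of Nrp2, 8.94 peaks per 100 kb, was above 86.9% of similar-length genes and its PR density of 5.92 above 47.4%.

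**Figure D4:**
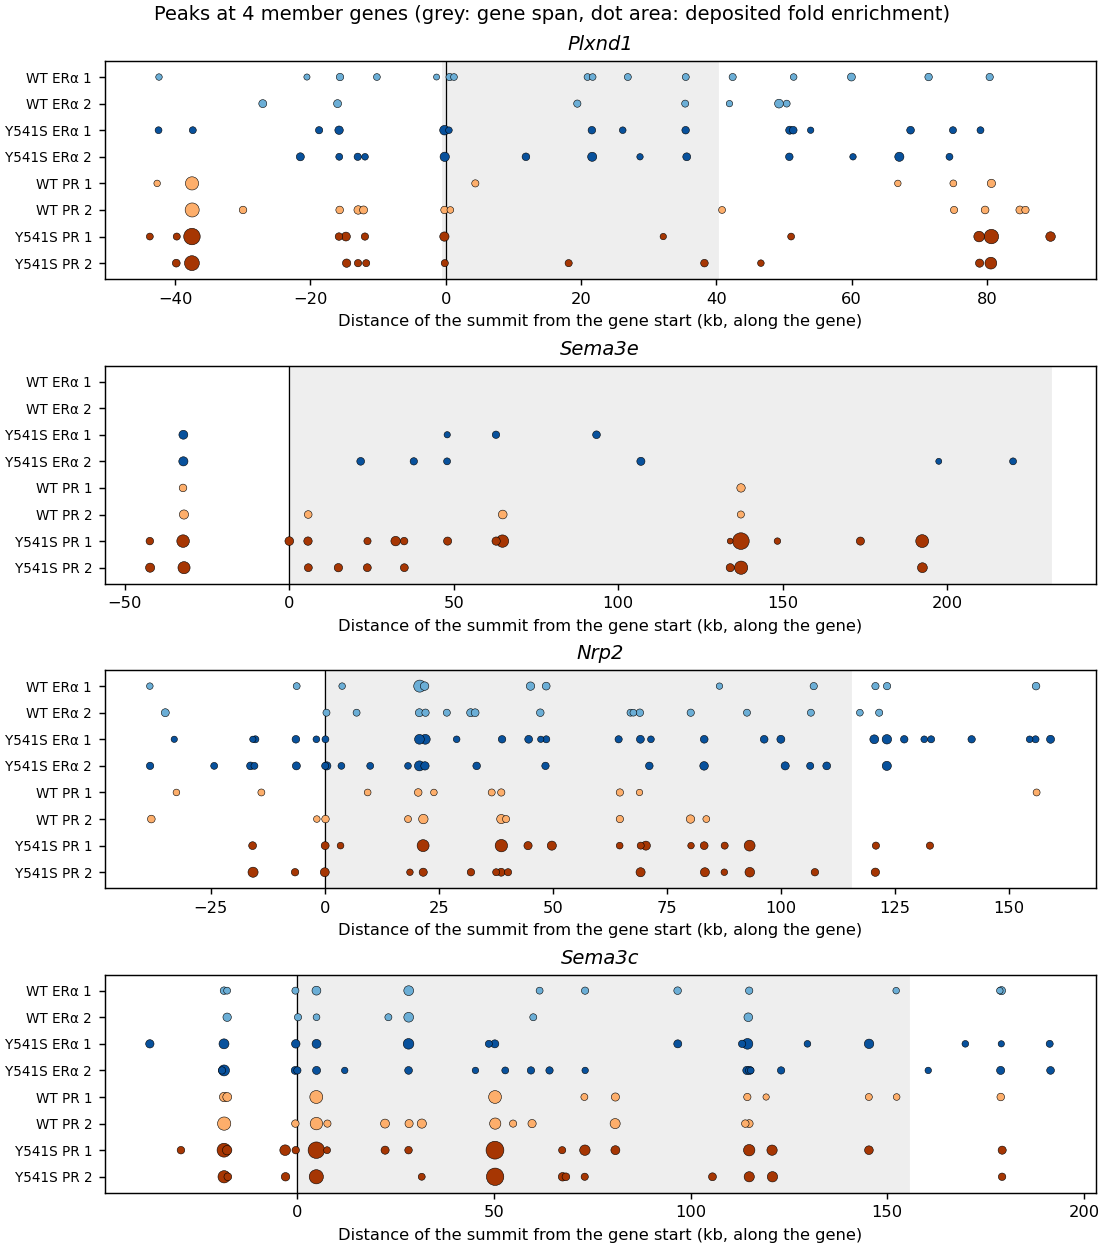
Summits of peaks at Plxnd1, Sema3e, Nrp2 and Sema3c by distance from the gene start in kb along the gene, 1 row per library, with the gene's span shaded and dot area in proportion to the deposited fold enrichment. At the Plxnd1 start, dots at the promoter stand in both Y541S ERα rows (5.59 and 5.32). WT ERα replicate 1 has dots at 0.57 (3.26), 1.215 (2.85) and -1.362 kb (2.23) from the start, and WT ERα replicate 2 has none within 2 kb. Sema3e has no dot in the WT ERα rows, and the large PR dots of Sema3c 50.3 kb past the start are in all 4 PR rows.

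Peak density was read beside gene length, because long genes hold fewer peaks per 100 kb. The median ERα density of members was 8.72 peaks per 100 kb, where the median of their similar-length medians was 6.22, and 24 of 31 members were above the median of their own similar-length genes. For PR it was 7.82 against 6.80, with 19 of 31 above. For ERα, 14 members were above the middle 50% of similar-length genes and 2 below it, and for PR 11 and 2. These are descriptions with no test, and a window can hold several genes. At members, 38 of the 101 constant ERα regions and 56 of the 139 constant PR regions lay inside another coding gene.

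**Figure D5:**
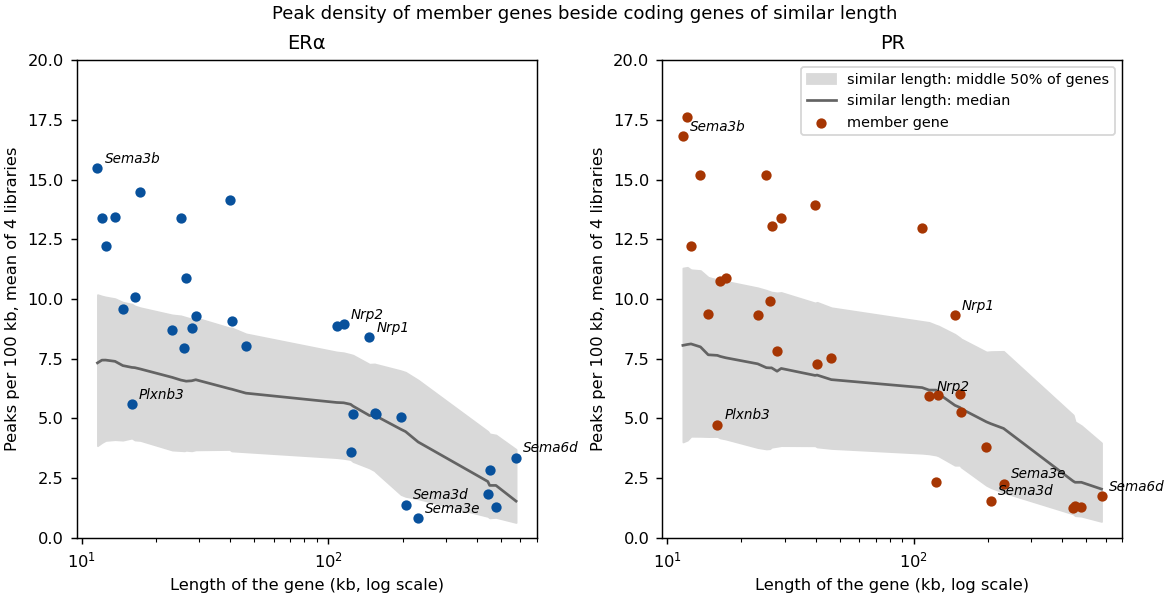
Peak density of each member (points, mean of 4 libraries, peaks per 100 kb) against gene length in kb on a log axis, with the median (line) and the middle 50% (band) of coding genes of similar length, for ERα (left) and PR (right). Sema3b sat at 15.5 for ERα, far above the band, and Sema3d and Sema3e sat below it at 1.39 and 0.83.

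Members were also divided by whether other genes lie close by. No other coding gene was in the window of 11 members (Nrp1, Nrp2, Plxna2, Plxna4, Sema3a, Sema3c, Sema3d, Sema3e, Sema5a, Sema6a and Sema6d), which were 115 to 578 kb long, whereas the other 20 shared theirs. The lone genes together had 106 and 101 ERα peaks in WT and 185 and 180 in Y541S. The 20 others had 271 and 226 against 295 and 272. Both Y541S libraries exceeded both WT libraries in ERα peaks at 9 of the 11 and at 6 of the 20. The 9 of 11 is near the 71.8% averaged over genes of similar length, with 41.4% for the 2484 coding genes that stand alone. The 6 of 20 compares with 42.4% at similar length and 40.8% of coding genes with neighbours. Constant ERα regions numbered 15 at the lone genes and 88 at the others, and Y541S-only ERα regions 15 and 19. PR peaks numbered 94 and 110 against 148 and 126 at the lone genes and 253 and 288 against 323 and 280 at the others. Both Y541S PR libraries were above at 4 of the 11 (38.5% at similar length; 23.0% of lone genes) and at 6 of the 20 (25.5%; 24.6% of genes with neighbours), near those shares. This division was made after the values were seen, and no test was made of it.

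Most constant and Y541S-only ERα regions had a PR peak in at least 1 PR library, 92 of 101 and 24 of 34, but few Y541S-only ones had a PR peak in all 4. Of the 101 constant ERα regions at members, 53 (52.5%, against 59.4% in the series) had a PR peak in all 4 PR libraries and 9 (8.91%, against 8.29%) in none. Among the 34 Y541S-only ERα regions, 4 (11.8%, against 17.6%) had one in all 4 and 10 (29.4%, against 32.7%) in none. For constant PR regions, 55 of 139 (39.6%, against 31.04%) had an ERα peak in all 4 ERα libraries and 24 (17.3%, against 21.6%) in none. Y541S-only PR regions had an ERα peak in all 4 libraries in 1 of 57 cases (1.75%, against 4.33%) and in none in 39 (68.4%, against 53.4%). Of the 11 WT-only PR regions 5 had no ERα peak (45.5%, against 54.9%), and of the 6 WT-only ERα regions 3 had no PR peak (43.7% in the series). Inside the genes lay 25 of the constant and 15 of the Y541S-only ERα regions (24.8% and 44.1%), and 40 of the constant and 31 of the Y541S-only PR regions (28.8% and 54.4%). Series shares were not counted for these. At the 11 lone genes, 115 to 578 kb long, constant and Y541S-only ERα regions numbered 15 and 15, against 88 and 19 at the 20 others. For PR they numbered 23 and 28, against 118 and 30. Any role of gene length was not tested. With peaks of all 8 libraries merged, 55 of 1420 regions at members had a peak in every library, beside 12113 of 321963 in the series, a similar share.

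Library by library, the share of ERα peaks at members that overlapped a PR peak of the like-numbered library of that genotype was 32.4% and 38.9% in WT and 40.9% and 34.4% in Y541S. The groups overlapped, and the difference was 1.96 points (two-sided exact permutation p = 0.667). With peaks of a −log10 p of at least 5 it was 16.2 points (exact permutation p = 0.333).

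Partners and effectors of the pathway that are not members were counted in the same way. All 36 listed genes were found, among them MICAL and CRMP effectors, regulators of small GTPases, vascular endothelial growth factors with their receptors, and adhesion partners. An ERα region in all 4 libraries lay at 29 of 36 (72.4% of all coding genes) and such a PR region at 32 (78.2%). Y541S-only regions lay at 27 for ERα (49.4%) and 23 for PR (55.2%), and WT-only regions at 9 (11.5%) and 8 (9.64%). Shares over genes of similar length were not counted for these 36 genes, several of which are long. Both Y541S libraries exceeded both WT libraries at 17 for ERα (40.8%) and 7 for PR (24.5%), and the reverse held at 1 each, Rhoa for ERα and Kdr for PR. Rhoa, the GTPase at the end of plexin B signalling, had 17 and 19 ERα peaks in WT and 16 and 14 in Y541S. Kdr, the receptor of vascular endothelial growth factor, had 11 and 8 PR peaks against 7 and 7. Vegfc, the growth factor whose receptors pair with Nrp2, had 0 and 3 ERα peaks in WT and 10 and 9 in Y541S. These 3 genes were named after their values were seen.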

How the data were processed

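ERα and PR ChIP-seq peak lists of 8 libraries, 2 replicates for each receptor and genotype by their labels, were used as the authors deposited them, 1 list per library. Coordinates are those of mm10, the build in the submitters' processing notes. Which aligner and peak caller were used is not given in the sources used here. The authors gave every deposited peak a score in whole numbers, a fold enrichment (a ratio of coverage to local expectation), a −log10 p and a −log10 q, and these served only within a list, for description, ranking and filtering. Every deposited −log10 p was at least 2. Coverage and its expectation at a summit were recovered as whole reads from the deposited fold and −log10 p, with a tolerance of 0.001, for at least 99.0% of peaks in each list.

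Summits were placed within 50 kb of RefSeq spans of 21887 coding genes. The gene table gave no strand, so starts came from the RefSeq promoter table (26 members, 37 starts), in place of the planned use of the gene table. A window can reach past neighbouring genes. Overlapping peaks were merged into regions per receptor. Group values were compared by two-sided exact permutation over libraries, with 6 arrangements for 1 receptor and 36 for both. Described with values in every library were Nrp1, Nrp2 and Plxnd1 and, for each receptor, the 6 members with most regions in all 4 libraries, the 6 with most Y541S-only and the 4 with most WT-only regions; the 4, 3 and 4 best-ranked regions at members of the Y541S-only, WT-only and constant classes are given with their values. The members and lists were chosen with earlier results of these data known. Alternatives were a stricter p, the 20000 strongest peaks, other distances, overlap by 100 bp, each library left out and a replicate block. Scripts used Python 3.11.15, numpy 2.4.6, pandas 2.3.3 and scipy 1.17.1 and were tested on simulated data. Samples with D542G were not analysed here.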

Additional observations from a re-analysis of the deposited data

How the results depend on the processing

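The p-values rest on 2 libraries a group, and regions called only in 1 genotype depend on the threshold and on depth. The cause of the changes below was not tested, except that leaving out a library lets "only" rest on 1 list. Peaks of a −log10 p of at least 5 turned the differences in share to 0.0196 points (ERα) and 0.0110 (PR), and gave 47 constant and 0 WT-only ERα regions at 0 genes, 2 WT-only PR regions at 2 genes, and 19 genes above in Y541S for PR. At that p the log2 ratios of peak numbers were 0.48 (ERα) and 0.74 (PR). The difference in the share of ERα peaks overlapping a PR peak was 16.2 points. Among the 20000 strongest peaks of each list the ERα log2 ratio fell to 0.052. These peaks turned the ERα share difference to 0.0150 points and the PR log2 ratio to -0.026. They gave 30 constant, 12 Y541S-only (11 genes) and 1 WT-only (1 gene) ERα regions, 31 constant, 5 Y541S-only (5 genes) and 6 WT-only (5 genes) PR regions, and 5 (ERα) and 2 (PR) genes above in Y541S. Inside gene spans alone, the PR share difference was 0.00700 points and the ERα minus PR share near starts -0.947 points, with 26 constant, 15 Y541S-only (12 genes) and 2 WT-only (2 genes) ERα regions and 41 constant, 32 Y541S-only and 3 WT-only (3 genes) PR regions. Within 100 kb there were 219 constant PR regions. Shares over all coding genes were not counted under these alternatives, so their gene counts have no background.

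With each library left out in turn, Y541S-only regions ran from 49 to 248 (ERα) and 92 to 180 (PR), WT-only regions from 10 to 147 at 9 to 29 genes (ERα) and 11 to 126 at 11 to 30 genes (PR), and the overlap difference from -1.29 to 5.22 points. The overlap difference was -4.51 points within replicate number 2, an alternative added after seeing the data. The replicate block (differences taken within replicate number) left every group difference at its value, such as a log2 ratio of 0.41 for ERα (exact permutation p = 0.500) and 0.23 for PR.

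ERα differences of single genes in peaks turned to -0.5 (Sema6d) and 1 (Sema6c) with the stricter p, to -1 (Sema6d, Plxnc1, Sema3g) and -0.5 (Plxna4, Sema5a, Plxnb3) among the strongest peaks, and to -1.5 (Sema4a) and -1 (Sema3g) inside spans. PR differences turned to -0.5 (Sema4f, Sema7a, Sema4g) and -4.5 (Sema4d) among the strongest peaks. Of 184 alternative values of the group results, 125 were classed as kept, 48 as moved and 11 as turned. For a group difference, kept means only that its direction held, whatever its size. For a count it means about the same size. Among the alternative values of single genes, 46 kept direction and stayed within the larger group SD of the main difference, 44 moved and 14 turned.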
